A study of Mus musculus with 12 samples.

Results

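The pericentral hepatocyte zonation genes, whose transcripts mark the hepatocytes around the central vein, were followed through the livers of wild type and *Lcn2* null mice that had received mineral oil or CCl4 in mineral oil. They are *Glul*, *Slc1a2*, *Rhbg*, *Oat*, *Cyp2e1*, *Cyp1a2*, *Rgn*, *Axin2*, *Lgr5* and *Tbx3*, 10 genes in all. Each was taken by its symbol and had a row in the tables of all 4 comparisons, so that 10 of the 15194 genes with a value in all 12 libraries are described. The mice were female C57BL/6 animals, wild type or *Lcn2* null, and the sources used here do not say which exons the null allele lacks. Injections into the peritoneum were given 2 times per week for 8 weeks, starting at 8 weeks of age, and consisted of mineral oil or of CCl4 at 0.8 ml/kg in mineral oil. The animals were killed 48 h after the last dose. All groups received oil, and no uninjected group was analysed here. RNA came from whole liver, with 3 libraries in each of the 4 groups. The labels number the replicates without naming separate animals, and p-values measure no more than how far these libraries differ, which may be technical. Expression is given as CPM, the usual library-scaled count, which is the reads of a gene scaled to the total in genes of its library.

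Hepatocytes differ along the line from the portal tract to the central vein. Wnt ligands and R-spondins from the endothelium of the central vein act on the nearest hepatocytes, where beta-catenin and its TCF/LEF partners switch on the pericentral programme. Pericentral hepatocytes take up glutamate and ammonium and make glutamine, and they hold most of the cytochrome P450 enzymes, among them *Cyp2e1*, which turns CCl4 into a reactive radical. Periportal hepatocytes make urea and glucose. In bulk liver, fewer cells of a type and less RNA per cell cannot be told apart, and the place of a transcript in the lobule was not measured.

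The positions are those of the GENCODE M21 annotation of GRCm38. *Glul* lies on chromosome 1 from 153899944 to 153909723, *Slc1a2* on chromosome 2 from 102658659 to 102790784, *Rhbg* on chromosome 3 from 88242874 to 88254709 and *Oat* on chromosome 7 from 132557478 to 132576398. *Cyp2e1* lies on chromosome 7 from 140763739 to 140774987, *Cyp1a2* on chromosome 9 from 57676937 to 57683703 and *Rgn* on chromosome X from 20549787 to 20562089. *Axin2* lies on chromosome 11 from 108920349 to 108950783, *Lgr5* on chromosome 10 from 115450311 to 115587780 and *Tbx3* on chromosome 5 from 119670669 to 119684724. Because the pericentral programme is read out through TCF/LEF factors, the 250 bases before the RefSeq start of 6 of the 10 genes were searched for the word CTTTGAA, and for the same word ending in AT, TA or TT, on both strands. *Rhbg*, *Lgr5*, *Tbx3* and *Rgn* were not matched. Of these 6 promoters 4 are given below, with no match in *Glul* and *Oat* and a match, in capitals, in *Cyp2e1* and *Cyp1a2* (RefSeq, GRCm38.p6). They are chr1:153899679-153899928 (plus strand), chr7:132576399-132576648 (minus strand), chr7:140763569-140763818 (plus strand) and chr9:57683656-57683905 (minus strand), each read 5′ to 3′ towards the start of transcription.
Glul: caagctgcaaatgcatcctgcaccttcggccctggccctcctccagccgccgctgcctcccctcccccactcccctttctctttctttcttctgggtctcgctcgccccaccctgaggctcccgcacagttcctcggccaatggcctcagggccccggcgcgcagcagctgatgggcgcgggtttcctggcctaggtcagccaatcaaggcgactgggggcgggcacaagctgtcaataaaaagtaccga
Oat: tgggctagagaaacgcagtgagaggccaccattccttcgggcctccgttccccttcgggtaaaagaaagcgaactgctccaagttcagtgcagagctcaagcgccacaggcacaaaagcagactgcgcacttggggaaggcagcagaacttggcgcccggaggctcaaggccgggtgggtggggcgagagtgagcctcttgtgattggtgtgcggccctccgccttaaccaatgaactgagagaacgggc
Cyp2e1: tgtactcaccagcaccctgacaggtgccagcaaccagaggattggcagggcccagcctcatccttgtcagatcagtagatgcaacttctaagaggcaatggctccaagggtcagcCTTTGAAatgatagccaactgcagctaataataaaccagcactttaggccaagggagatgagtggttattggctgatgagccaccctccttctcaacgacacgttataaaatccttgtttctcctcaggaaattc
Cyp1a2: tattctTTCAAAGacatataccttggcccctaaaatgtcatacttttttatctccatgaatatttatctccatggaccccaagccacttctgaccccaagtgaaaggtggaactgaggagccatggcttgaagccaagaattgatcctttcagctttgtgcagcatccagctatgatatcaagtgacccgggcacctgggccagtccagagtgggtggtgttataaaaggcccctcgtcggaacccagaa
The match in *Cyp2e1* spans bases -135 to -129 from the start, and that in *Cyp1a2*, on the opposite strand, bases -244 to -238. *Slc1a2* held a match at -207 to -201 of a RefSeq start that lies inside the GENCODE gene, and *Axin2* held none. The RefSeq starts of *Cyp2e1* and *Cyp1a2* also lie inside their GENCODE genes. Of 32851 mouse promoters of this length, 14.8% held at least 1 of the 4 words, so that a match is a description and not a site. The core word GCGTG of the aryl hydrocarbon receptor, found in 28.2% of promoters, and the HNF1 word GTTAAT, found in 6.43%, were in none of the 6.

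The depth was 7582962 to 14591487 reads in genes in 11 libraries. For library 2 of *Lcn2* null mice on CCl4 whole reads were not recovered. The deleted gene went with the labels in every library. *Lcn2* was at 345, 739 and 1045 CPM in wild type mice on oil and at 7.74, 3.44 and 4.21 CPM in *Lcn2* null mice on oil, and at 557, 424 and 405 CPM against 16.7, 14.6 and 4.63 CPM on CCl4. A list of 10 genes of all hepatocytes (*Ttr*, *Apoa2*, *Apoh*, *Ahsg*, *Ambp*, *Rbp4*, *Hnf4a*, *Cebpa*, *F2* and *Proc*) were measured in every library, with sums of 32243 to 43180 CPM. CPM hold each library to the same total. On this scale 2931 genes were called higher and 504 lower on CCl4 in wild type mice, against 1168 and 1110 once libraries were rescaled by the median ratio of CPM, which moved the median difference of all genes from 0.27 to 0.01 on the log2 scale. The *Lcn2* null calls were 4631 higher and 705 lower, against 1951 and 1693 after the same rescaling, and the median moved from 0.35 to 0.03. Differences below are therefore set beside the median of all genes.

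On CCl4, transcripts of the pericentral glutamine and glutamate genes and of *Cyp2e1* were at a small fraction of their level on oil in both genotypes, *Rgn* and *Tbx3* were moderately lower, and *Axin2* and *Lgr5* did not pass the test. A gene was called with limma on log2(CPM + 1) where the adjusted p did not exceed 0.05 and the log2 difference exceeded 0.56 in size (1.47-fold). This scale understates the change of genes with low CPM. In wild type mice 7 of the 10 genes were called lower, where 3.18% of 15841 genes were, and 8 had no CCl4 library reaching an oil library, where 6.82% of genes were lower in this way. In *Lcn2* null mice 8 of the 10 were called lower, where 4.51% of 15645 genes were, and 6 did not overlap, where 8.53% of genes were lower without overlap. None was called higher in either genotype. The median log2 difference of the 10 was -1.57 in wild type mice, beside 0.27 for all genes, and -1.59 in *Lcn2* null mice, beside 0.35. The libraries of the genotypes are separate, so the comparisons share no sample.

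**Figure D1:**
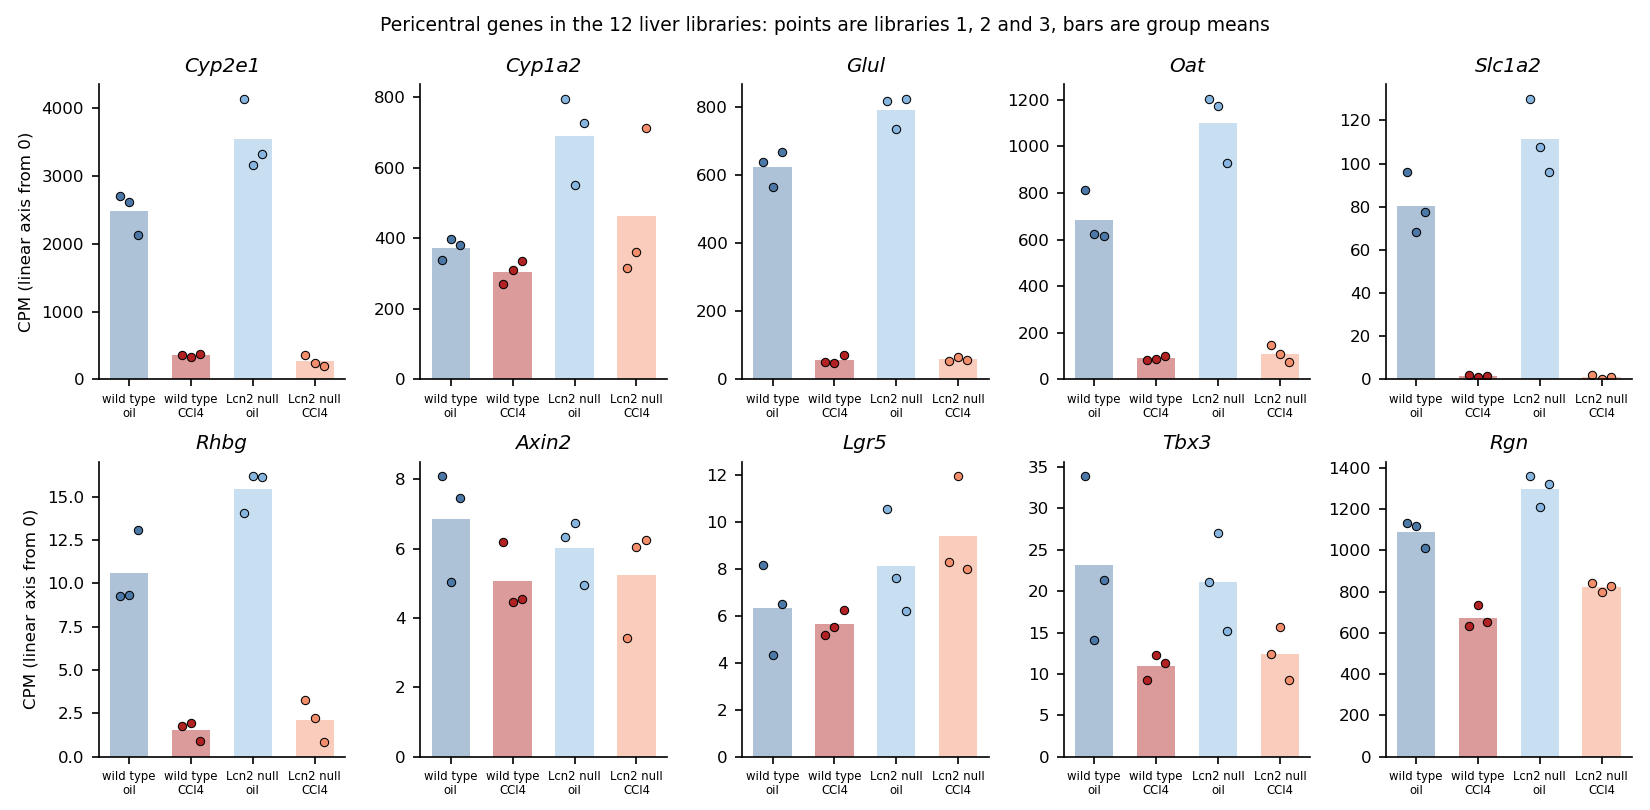
CPM of the 10 pericentral genes in each of the 12 libraries, with 1 panel per gene and a linear axis from 0; points are libraries 1 to 3 of a group and bars are group means. The CCl4 points of *Glul*, *Slc1a2*, *Rhbg*, *Oat* and *Cyp2e1* lie far below those on oil in both genotypes, while the points of *Axin2* and *Lgr5* overlap between oil and CCl4.

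*Glul* encodes glutamine synthetase, which joins ammonium to glutamate in the last hepatocytes before the central vein. In the order of libraries 1, 2 and 3, kept for all genes below, *Glul* was at 639, 563 and 666 CPM in wild type mice on oil and at 52.1, 49.7 and 70.4 CPM on CCl4. *Lcn2* null livers had 816, 736 and 824 CPM on oil and 53.8, 66.9 and 55.8 CPM on CCl4. The highest CCl4 library was at 70.4 CPM and the lowest oil library at 563 CPM, so the injections did not overlap. The mean on oil was 10.9 times that on CCl4 in wild type mice (log2 difference -3.43, standard error 0.13, adjusted p = 2.62e-10, limma). It was 13.5 times higher on oil in *Lcn2* null mice (log2 difference -3.73, standard error 0.10, adjusted p = 3.81e-10, limma). The largest difference among the 10 in both genotypes was that of *Slc1a2*, the glutamate transporter GLT-1, which supplies these cells with the substrate of glutamine synthetase. *Slc1a2* was at 96.0, 68.1 and 77.5 CPM in wild type mice on oil and at 2.21, 0.959 and 1.70 CPM on CCl4. *Lcn2* null mice had 130.1, 108 and 96.2 CPM on oil, and on CCl4 1.85 CPM in library 1, a listed value of 0 in library 2 and 1.0 CPM in library 3. These CCl4 levels rest on 14 to 20 reads per library in wild type mice and on 8 to 14 reads in the 2 *Lcn2* null libraries with recovered reads, against 568 to 1501 reads on oil. The level on CCl4 was 2.02% of that on oil in wild type mice (log2 difference -4.97, standard error 0.21, adjusted p = 7.11e-10, limma). It was 0.852% in *Lcn2* null mice (log2 difference -5.96, standard error 0.30, adjusted p = 2.62e-08, limma), and leaving out single libraries moved this difference between -6.30 and -5.55.

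*Rhbg*, an ammonium transporter of the Rh family in the hepatocyte membrane, followed the same direction at low counts. *Rhbg* was at 9.28, 9.36 and 13.1 CPM in wild type mice on oil and at 1.77, 1.92 and 0.908 CPM on CCl4. The *Lcn2* null values were 14.1, 16.2 and 16.1 CPM on oil and 3.30, 2.21 and 0.875 CPM on CCl4. Each oil library was above each CCl4 library, with 78 to 226 reads on oil and 7 to 28 on CCl4. The log2 difference was -2.20 in wild type mice (adjusted p = 3.17e-05) and -2.47 in *Lcn2* null mice (adjusted p = 2.72e-05, both limma). *Oat*, the mitochondrial ornithine aminotransferase, links ornithine to glutamate and proline. *Oat* was at 814, 623 and 614 CPM in wild type mice on oil and at 84.1, 88.8 and 101 CPM on CCl4. Livers without *Lcn2* held 1206, 1173 and 927 CPM on oil and 148, 108 and 74.1 CPM on CCl4. The groups were far apart, with 7.50 times more *Oat* on oil in wild type mice (log2 difference -2.89, adjusted p = 7.86e-10) and 10.02 times more in *Lcn2* null mice (log2 difference -3.36, adjusted p = 7.22e-08, both limma). Part of the *Oat* locus overlaps *Fgfr2* on the same strand, whose level was 18.7 to 31.5 CPM in all libraries. *Teddm2*, on the opposite strand of *Glul*, did not exceed 1.74 CPM. The methods name a stranded kit beside the 3′ end kit, and the strand setting of the counting is not given in the sources used here.

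*Cyp2e1* was at 2713, 2621 and 2125 CPM in wild type mice on oil and at 367, 325 and 378 CPM on CCl4. For *Lcn2* null mice the libraries gave 4145, 3169 and 3325 CPM on oil and 358, 248 and 196 CPM on CCl4. The lowest oil library of either genotype had 2125 CPM and the highest CCl4 library 378 CPM. *Cyp2e1* thus fell to 14.3% of its oil level in wild type mice (log2 difference -2.79, standard error 0.13, adjusted p = 1.64e-09, limma) and to 7.54% in *Lcn2* null mice (log2 difference -3.76, standard error 0.18, adjusted p = 1.47e-08, limma). *Cyp1a2*, the other P450 of the set, oxidises caffeine and planar aromatic compounds and is induced through the aryl hydrocarbon receptor. It changed far less. *Cyp1a2* was at 339, 397 and 381 CPM in wild type mice on oil and at 270.0, 310.1 and 335 CPM on CCl4. The ranges did not overlap, and the log2 difference of -0.29 (95% confidence interval -0.53 to -0.05) did not pass the test (adjusted p = 0.0701, limma). After rescaling by the median ratio of CPM it was -0.63 and was called, as it was with edgeR (-0.61) and DESeq2 (-0.62) on the recovered reads. *Cyp1a2* in *Lcn2* null livers was at 797, 551 and 728 CPM on oil and at 316, 362 and 712 CPM on CCl4. Library 3 on CCl4 lay within the oil range and the other CCl4 libraries below it. The log2 difference was -0.66 (adjusted p = 0.0410, limma). That call was lost without oil library 1 (-0.55, adjusted p = 0.151), oil library 3 (-0.61, adjusted p = 0.119), CCl4 library 1 (-0.43, adjusted p = 0.196) or CCl4 library 2 (-0.53, adjusted p = 0.142), and the difference was -1.01 without CCl4 library 3. It was also lost with a pseudocount of 5 (-0.65, adjusted p = 0.0509), after rescaling by the hepatocyte genes (-0.36, adjusted p = 0.216) and without the variance trend (adjusted p = 0.131).

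*Rgn* encodes regucalcin, a calcium-binding protein that also acts as the gluconolactonase of ascorbate synthesis. *Rgn* was at 1133, 1120.2 and 1013 CPM in wild type mice on oil and at 632, 735 and 655 CPM on CCl4. The *Lcn2* null values were 1362, 1210.3 and 1323 CPM on oil and 843, 799 and 829.7 CPM on CCl4. No CCl4 library reached an oil library, although the fall was much smaller than that of *Glul* or *Cyp2e1*. The log2 difference was -0.69 in wild type mice (adjusted p = 0.000597) and -0.65 in *Lcn2* null mice (adjusted p = 8.90e-05, both limma), and the latter became -0.35 and lost its call when libraries were rescaled by the hepatocyte genes.

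The 3 genes closest to the Wnt signal rested on 26 to 377 reads per library. *Tbx3*, a T-box repressor switched on by beta-catenin in the liver, was at 33.9, 14.0 and 21.4 CPM in wild type mice on oil and at 9.27, 12.3 and 11.4 CPM on CCl4. The oil libraries spread widely, but none overlapped a CCl4 library. The log2 difference was -0.93 (adjusted p = 0.0113, limma) and lost its call without oil library 1 (-0.62, adjusted p = 0.0611) or CCl4 library 1 (-0.83, adjusted p = 0.0612), or when limma was run without the variance trend (adjusted p = 0.0509). *Tbx3* in *Lcn2* null livers was at 21.1, 27.0 and 15.1 CPM on oil and at 12.4, 15.7 and 9.25 CPM on CCl4. The ranges overlapped, since CCl4 library 2 was above oil library 3. Here the log2 difference was -0.71 (adjusted p = 0.0221, limma). It was no longer called without oil library 1 (-0.69, adjusted p = 0.0677), oil library 2 (-0.52, adjusted p = 0.118), CCl4 library 1 (-0.72, adjusted p = 0.0575) or CCl4 library 3 (-0.53, adjusted p = 0.0851), nor after rescaling by the hepatocyte genes (-0.43, adjusted p = 0.125) or without the trend (adjusted p = 0.0593). Its antisense neighbour *Tbx3os1* was at 4.68 to 8.19 CPM on oil and 0.908 to 3.09 CPM on CCl4 in wild type mice, and at 9.05 to 13.1 CPM and 0.750 to 1.58 CPM in *Lcn2* null mice. Unless the counting used strand, reads of this pair cannot be told apart.

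*Axin2*, the feedback inhibitor that serves as a general readout of Wnt signalling, was at 8.10, 5.04 and 7.45 CPM in wild type mice on oil and at 6.18, 4.45 and 4.54 CPM on CCl4. For *Lcn2* null mice the libraries gave 6.32, 6.74 and 4.96 CPM on oil and 3.43, 6.04 and 6.25 CPM on CCl4. The groups overlapped in both genotypes. The log2 difference was -0.37 in wild type mice (95% confidence interval -0.90 to 0.16) and -0.19 in *Lcn2* null mice (-0.74 to 0.35), neither of which passed the test. DESeq2 on the recovered reads did call *Axin2* lower in wild type mice (-0.79, adjusted p = 0.0224). *Lgr5*, the R-spondin receptor of the hepatocytes next to the central vein, was at 8.19, 4.32 and 6.49 CPM in wild type mice on oil and at 5.19, 5.55 and 6.24 CPM on CCl4. *Lcn2* null livers had 10.6, 7.60 and 6.20 CPM on oil and 8.31, 12 and 8.00 CPM on CCl4. Oil and CCl4 overlapped in both genotypes, with a log2 difference of -0.11 in wild type mice (-0.64 to 0.43) and 0.20 in *Lcn2* null mice (-0.30 to 0.70). The intervals of *Axin2* and *Lgr5* exclude a fall of the size seen for *Glul* or *Cyp2e1* on this scale, but leave room for changes above 1.47-fold.

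**Figure D2:**
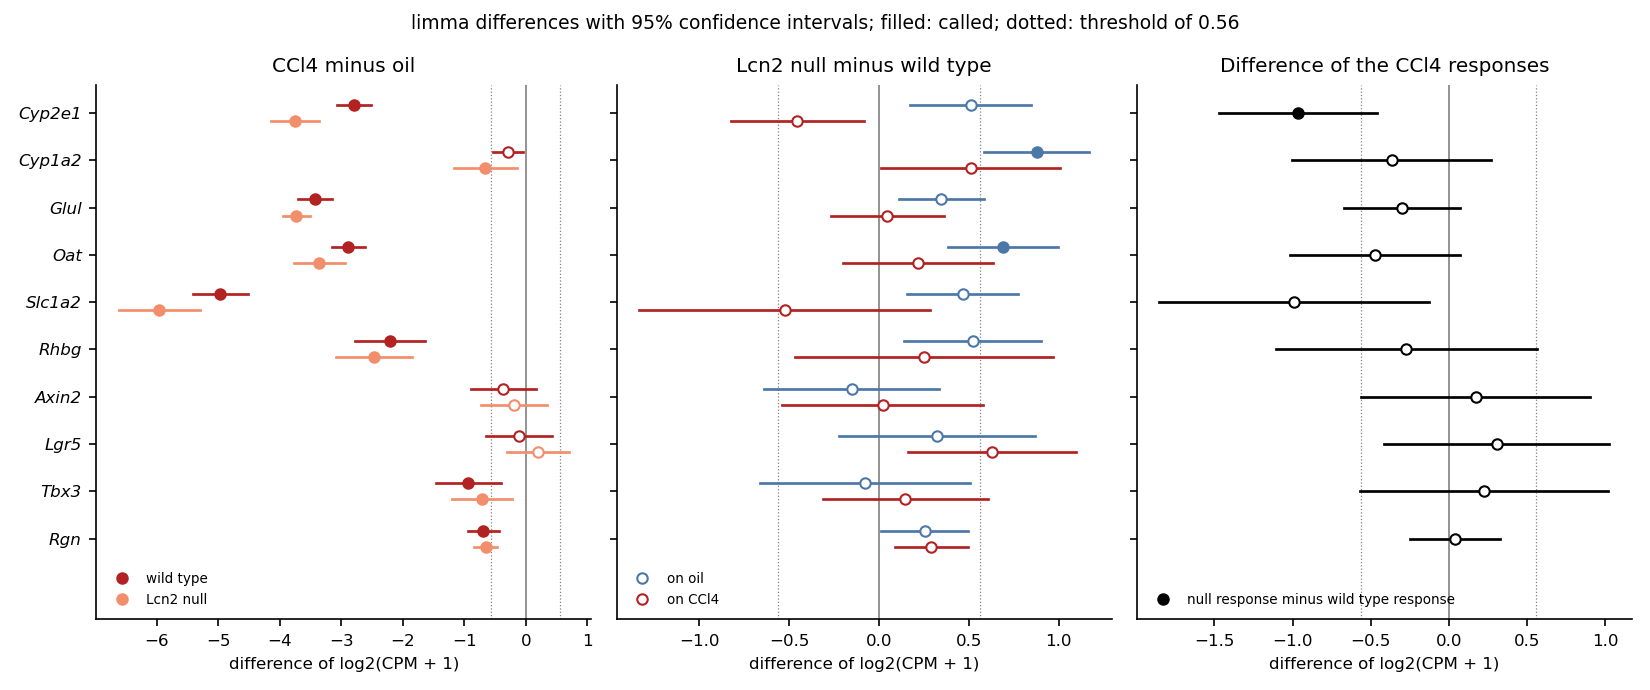
Log2 differences of the 10 genes with 95% confidence intervals from limma, for CCl4 minus oil in each genotype, *Lcn2* null minus wild type on each injection, and the difference of the CCl4 responses; filled symbols were called, and dotted lines mark 0.56. *Slc1a2* (-4.97 and -5.96) lies farthest below 0 on CCl4 in both genotypes, and on oil 2 genes, *Cyp1a2* (0.88) and *Oat* (0.69), were called higher in *Lcn2* null mice.

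On oil, *Cyp1a2* and *Oat* were called higher in *Lcn2* null than in wild type livers and the other 8 pericentral genes were not called. The called genes are thus 2 of the 10, where 1.11% of 14202 genes were called higher with limma, and none was called lower. For 7 of the 10, *Cyp1a2* and *Oat* included, each *Lcn2* null library was above each wild type library, with means 119% to 186% of those in wild type mice, where 9.84% of genes were higher in this way. The median log2 difference of the 10 was 0.41, beside -0.03 for all genes. These values use the same oil libraries as the CCl4 comparisons above, and the 2 sets of differences are not independent. *Cyp1a2* was at 551 to 797 CPM in *Lcn2* null mice against 339 to 397 CPM in wild type mice, 186% of the wild type mean (log2 difference 0.88, standard error 0.13, adjusted p = 0.00286, limma). *Oat* was at 927 to 1206 CPM against 614 to 814 CPM, 161% of the wild type mean (log2 difference 0.69, standard error 0.14, adjusted p = 0.0132, limma). The call of *Oat* was lost without wild type library 2 (0.63, adjusted p = 0.0744), *Lcn2* null library 1 (0.62, adjusted p = 0.0673) or *Lcn2* null library 2 (0.64, adjusted p = 0.0772), and after rescaling by the hepatocyte genes (0.50, adjusted p = 0.0753) or without the variance trend (adjusted p = 0.0913). The other 5 of the 7 were separate but were not called. *Cyp2e1* had a log2 difference of 0.51 (adjusted p = 0.0778), *Slc1a2* of 0.47 (0.0795 adjusted), *Glul* of 0.35 (0.0837 adjusted), *Rhbg* of 0.52 (0.112 adjusted) and *Rgn* of 0.25 (0.230 adjusted, all limma). *Slc1a2* was called without wild type library 1 (0.60, adjusted p = 0.0272) and *Rhbg* without wild type library 3 (0.67, adjusted p = 0.0457), and DESeq2 called *Rhbg* as well (0.59, adjusted p = 0.0339). *Axin2* (-0.15), *Lgr5* (0.32) and *Tbx3* (-0.08) overlapped between the genotypes.

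Other transcripts differed between the genotypes on oil beside these genes. The sum of the 10 hepatocyte genes was 39440 to 43180 CPM in *Lcn2* null mice and 32243 to 34270 CPM in wild type mice, with a median log2 difference of 0.27 and none of the 10 called. The sum of 6 Kupffer cell and macrophage markers was 315 to 421 CPM against 588 to 1078 CPM, with 5 called lower, where 3.8% of all genes were, and none at 0. Of the 3 tested neutrophil markers 2 were lower, *S100a8* (log2 difference -2.55) and *S100a9* (-2.53), and the sum over the 5 measured was 21.4 to 38.6 CPM against 152 to 209 CPM. Mesothelial markers summed to 7.19 to 8.18 CPM against 31.1 to 46.0 CPM, with 4 of 4 called lower, and bile duct markers to 42.9 to 48.9 CPM against 86.6 to 201 CPM, with 3 of 5 called lower. The part of this makeup in the pericentral differences on oil was not tested. After rescaling by the hepatocyte genes the median of the 10 pericentral genes was 0.22, beside -0.19 for all genes. Of the 10, 1 was called higher, where 85 of all 14202 genes were.

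On CCl4, no gene of the 10 differed between the genotypes by the limma test over all genes, where 0.298% of 14445 genes were called in either direction. Count tests were not run here. An unadjusted p under 0.05 was found for 4 of the 10, where 8.67% of all genes had one, with *Cyp2e1* lower and *Cyp1a2*, *Lgr5* and *Rgn* higher in *Lcn2* null mice. *Lgr5* was at 8.00 to 12 CPM in *Lcn2* null and 5.19 to 6.24 CPM in wild type mice, which did not overlap (log2 difference 0.63, 95% confidence interval 0.16 to 1.10, adjusted p = 0.373, limma). *Rgn* was at 799 to 843 CPM against 632 to 735 CPM, also apart (0.29, 0.09 to 0.49, adjusted p = 0.322, limma). Of all genes, 8.66% were higher without overlap. *Cyp2e1* was at 196 to 358 CPM against 325 to 378 CPM (-0.46, -0.83 to -0.08, adjusted p = 0.445, limma), with *Lcn2* null library 1 inside the wild type range. *Cyp1a2* had a log2 difference of 0.51 (0.01 to 1.01), with *Lcn2* null library 1 (316 CPM) inside the wild type range of 270.0 to 335 CPM and libraries 2 and 3 (362 and 712 CPM) above it. *Glul* was close to equal in mean, 58.8 ± 7.09 CPM against 57.4 ± 11.3 CPM (SD, n = 3 each), with an interval of -0.27 to 0.36 on the log2 scale. The differences were 0.22 for *Oat*, -0.53 for *Slc1a2*, 0.25 for *Rhbg*, 0.02 for *Axin2* and 0.15 for *Tbx3*, with overlapping libraries. The median of the 10 was 0.18, beside 0.04 for all genes.

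Seen over the 4 groups, *Cyp2e1*, *Glul*, *Oat*, *Slc1a2*, *Rhbg* and *Rgn* had the order *Lcn2* null on oil, wild type on oil and then the CCl4 groups. For these 6 the first step, from *Lcn2* null to wild type mice on oil, was 1.19 to 1.61 times without overlap. The step from wild type mice on oil to the higher CCl4 group was 1.32 times for *Rgn*, 4.97 times for *Rhbg*, 6.22 times for *Oat*, 6.97 times for *Cyp2e1*, 10.6 times for *Glul* and 49.6 times for *Slc1a2*. The CCl4 groups overlapped for 5 of the 6, with *Rgn* as the exception. *Cyp1a2* ran from *Lcn2* null mice on oil over *Lcn2* null mice on CCl4 to wild type mice on oil and on CCl4, and of these neighbours the wild type groups alone did not overlap. For *Axin2*, *Lgr5* and *Tbx3*, each neighbouring pair in the order of means overlapped.

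The CCl4 response itself was compared between the genotypes in a fit of all 12 libraries. *Cyp2e1* fell further in *Lcn2* null mice, by a difference of the log2 differences of -0.97 (standard error 0.24, 95% confidence interval -1.47 to -0.46, adjusted p = 0.0473, limma). It was the only one of the 10 called, where 0.816% of 15194 genes were called lower. This call rested on the edge of the threshold. Leaving out each of the 12 libraries gave -1.20 to -0.77, with adjusted p between 0.00867 and 0.126, and the call was lost in 10 of the 12 and kept only without wild type oil library 1 or *Lcn2* null CCl4 library 1. It was also lost with a pseudocount of 5 (-0.96, adjusted p = 0.0566), after rescaling by the hepatocyte genes (-0.78, adjusted p = 0.104) and without the variance trend. *Slc1a2* had a difference of nearly the same size, -0.99, with a wide interval (-1.85 to -0.13, adjusted p = 0.256, limma). The others were -0.47 for *Oat*, -0.37 for *Cyp1a2*, -0.30 for *Glul*, -0.27 for *Rhbg*, 0.04 for *Rgn*, 0.17 for *Axin2*, 0.22 for *Tbx3* and 0.31 for *Lgr5*. The median of the 10 was -0.29, beside 0.09 for all genes.

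Ratios within a library do not depend on its scaling, but for the 1 added to each CPM before they were formed. A pericentral gene was therefore set against a periportal one. *Gls2*, the liver glutaminase, releases the ammonium that *Glul* fixes further down the lobule. The log2 ratio of *Glul* to *Gls2* was 1.13, 0.99 and 1.64 in wild type mice on oil and -2.52, -3.00 and -2.36 on CCl4. In *Lcn2* null mice it was 1.42, 1.08 and 1.56 on oil and -2.45, -1.94 and -2.05 on CCl4. The ratio changed sign between the injections in both genotypes. The mean difference was -3.69 over both genotypes, -3.88 in wild type and -3.50 in *Lcn2* null mice (two-sided exact permutation test within genotype, p = 0.005, the smallest that its 400 arrangements allow, 0.01 adjusted over 4 tests). The log2 ratio of *Cyp2e1* to *Cyp2f2*, a P450 of periportal hepatocytes, was 2.35, 2.64 and 2.69 in wild type mice on oil and 0.26, -0.59 and -0.69 on CCl4. In *Lcn2* null mice it was 2.78, 2.26 and 2.70 on oil and 0.54, 0.08 and -0.80 on CCl4. Oil and CCl4 were again apart, with a mean difference of -2.77, -2.90 in wild type and -2.64 in *Lcn2* null mice (p = 0.005 by the exact permutation test, the smallest possible, 0.01 adjusted). Between the genotypes, the mean difference was 0.29 for *Glul* to *Gls2* (p = 0.145, 0.193 adjusted) and 0.15 for *Cyp2e1* to *Cyp2f2* (p = 0.6, both exact permutation tests within injection). *Cyp2f2* was itself lower on CCl4 in *Lcn2* null mice, with a log2 difference of -1.12.

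**Figure D3:**
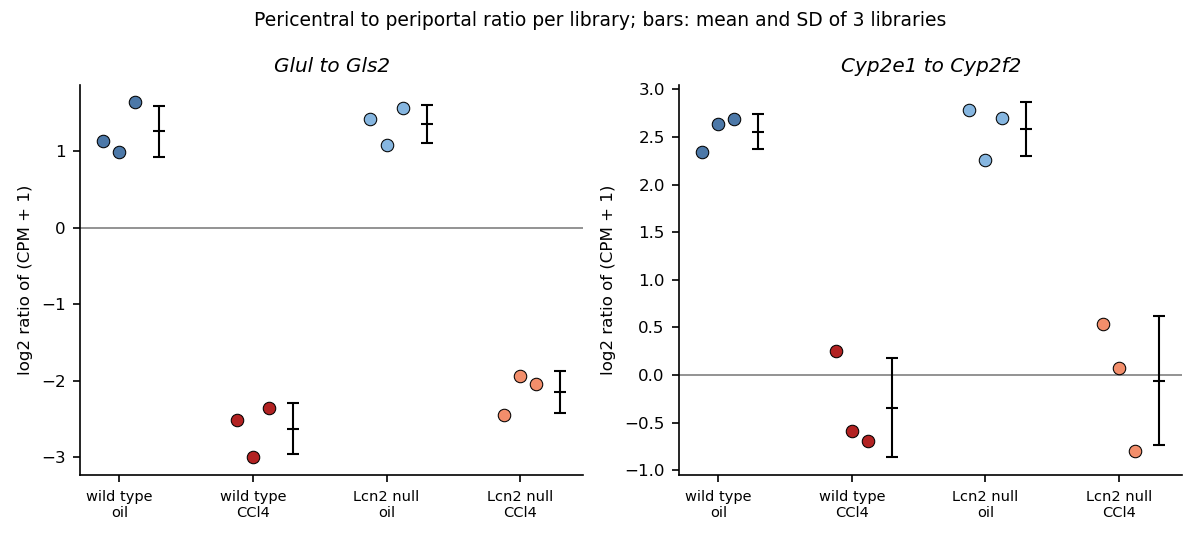
Log2 ratio of *Glul* to *Gls2* and of *Cyp2e1* to *Cyp2f2* in each of the 12 libraries by group; points are libraries, bars the mean and SD of 3. On oil the group means are 1.25 and 1.35 for the first pair and 2.56 and 2.58 for the second, and on CCl4 -2.63 and -2.14, and -0.34 and -0.06, in wild type and *Lcn2* null mice.

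Other genes of pericentral hepatocytes were mostly lower on CCl4, with exceptions. Of 26 further pericentral genes, 13 were called lower and 5 higher on CCl4 in wild type mice (median -0.50), where 3.18% and 18.5% of all genes were. There were 15 lower and 1 higher in *Lcn2* null mice (median -0.71), where 4.51% and 29.6% of all genes were. With the median-ratio rescaling these counts were 15 lower and 1 higher in wild type mice, where 1110 and 1168 of all 15841 genes were. They were 21 lower and 1 higher in *Lcn2* null mice, where 1693 and 1951 of all 15645 genes were. *Lhpp*, a histidine phosphatase, had the largest fall in both genotypes (-2.41 and -3.03). *Cyp27a1*, the sterol 27-hydroxylase, fell by 1.57 in wild type and by 1.59 in *Lcn2* null mice on the log2 scale. *Cyp2c37* (-1.36 and -2.60) and *Cyp2c54* (-1.42 and -2.13) belong to a P450 cluster with close copies and their reads may be split among them, and *Cyp2a5*, a coumarin hydroxylase, was at -0.87 and -1.73. Called higher in both genotypes was *Gstm3* (1.90 and 1.86), a glutathione S-transferase with close copies. *Gstm1* (0.66), *Cyp7a1* (0.73), the rate-limiting enzyme of bile acid synthesis, and *Cyp3a11* (0.80) were called higher in wild type mice. On oil, 5 of the 26 were called higher in *Lcn2* null mice, *Cyp2a5* (1.56), *Nr1i3* (0.83), the nuclear receptor CAR, *Cyp2c37* (0.75), *Lhpp* (0.70) and *Cyp2c54* (0.56), where 1.11% of all genes were, and none lower. After rescaling by the hepatocyte genes 2 of the 26 were higher and 1 lower, beside 85 and 964 of all 14202 genes. Between the genotypes on CCl4 none of the 26 was called, and for the difference of the responses *Cyp2c37* (-1.24) and *Cyp2c29* (-0.88) were.

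Among the periportal genes, more were higher than lower on CCl4 in wild type mice. Of 23, 9 were called higher and 3 lower (median 0.45), where 18.5% and 3.18% of all genes were. After the median-ratio rescaling 5 were higher and 3 lower (median 0.11), beside 1168 and 1110 of all 15841 genes. *Aldh1b1* (2.04), a mitochondrial aldehyde dehydrogenase, *Cdh1* (1.65), the epithelial cadherin, *Hsd17b13* (1.08), a lipid droplet protein, and *Uroc1* (0.91), the urocanase of histidine breakdown, rose the most. *Pck1* (-1.67), the gatekeeper of gluconeogenesis, *Pigr* (-0.81), the receptor that carries IgA into bile, and *Mfsd2a* (-0.78), a lysolipid transporter, fell. Of the same genes in *Lcn2* null mice 4 were higher and 7 lower (median -0.24), where 29.6% and 4.51% of all genes were. They were 5 and 5 after rescaling by the hepatocyte genes (median 0.06), beside 7618 and 402 of all 15645 genes. That rescaling raised the median of all genes from 0.35 to 0.58, whereas the median ratio lowered it to 0.03. The rescaled counts of the genotypes are thus on unlike scales and are not to be compared. *Cdh1* (2.38), *Sdsl* (1.0), *Aldh1b1* (0.88) and *Hsd17b13* (0.62) were higher, and *Pck1* (-1.85), *Pigr* (-1.40), *Etnppl* (-1.23) and *Cyp2f2* (-1.12) lower. The difference of the CCl4 responses was called for 9 of the 23, each lower in *Lcn2* null mice. Of all genes, 0.816% were called lower. Among the 9 were *Etnppl* (-2.06), *Cyp2f2* (-1.23), *Aldh1b1* (-1.16) and *Hsd17b6* (-1.14). Rescaling by the hepatocyte genes gave 4 lower and 2 higher, beside 58 and 376 of all 15194 genes. On oil 3 were higher and 4 lower in *Lcn2* null mice, where 1.11% and 3.8% of all genes were. *Etnppl* (1.10) had the largest rise and *Mfsd2a* (-1.32) the largest fall. On CCl4 *Sds* (-1.24), *Aldh1b1* (-0.94) and *Asl* (-0.78) were lower, where 0.298% of all genes were called in either direction. Of 3 midlobular genes, *Hamp2* (1.41) and *Igfbp2* (0.60) were called higher in *Lcn2* null mice on oil, where 1.11% of all genes were. *Hamp* (-0.34) was not called there. On CCl4 *Hamp* (-0.73) fell and *Hamp2* (0.88) rose in wild type mice, while *Hamp2* (-1.85) and *Igfbp2* (-0.87) fell in *Lcn2* null mice. The 10 hepatocyte genes had medians of -0.17 and -0.29, with 1 and 3 called lower, where 3.18% and 4.51% of all genes were.

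**Figure D4:**
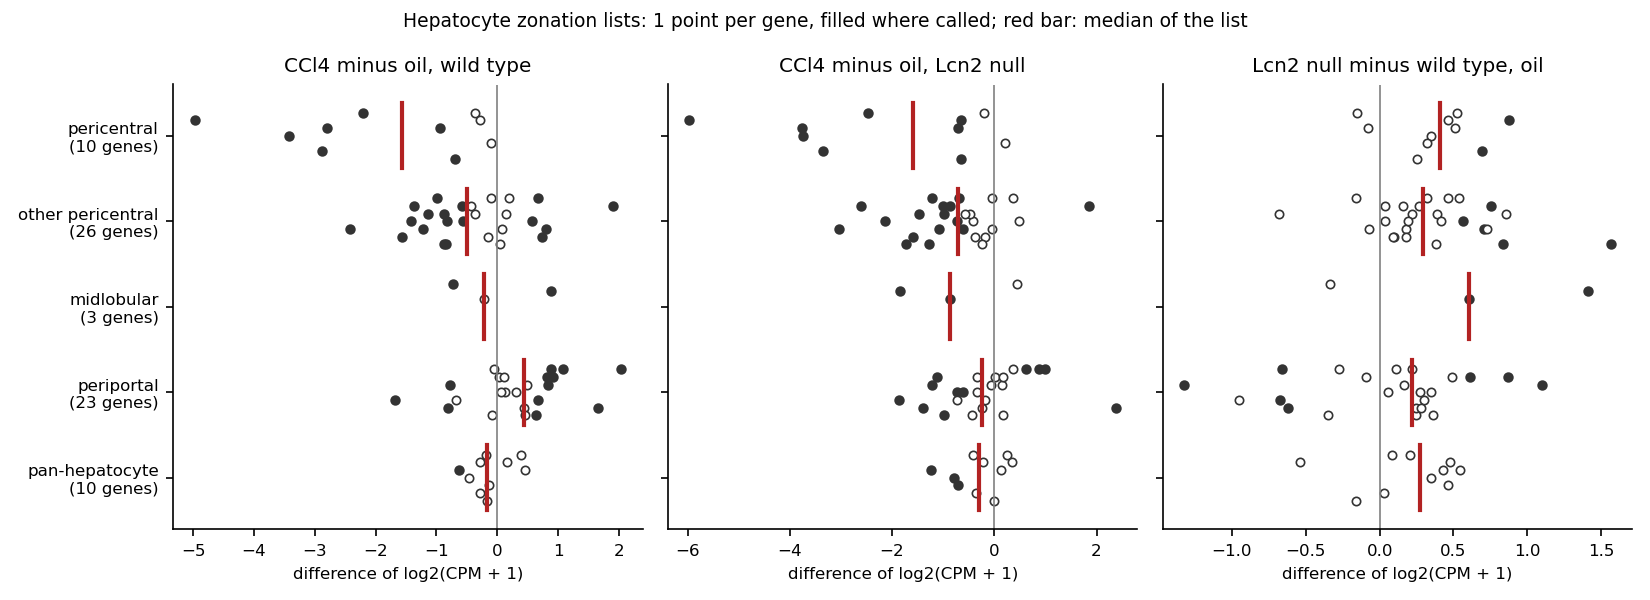
Log2 difference of each gene in 5 lists, for CCl4 minus oil in wild type and *Lcn2* null mice and *Lcn2* null minus wild type on oil; each point is a gene and the red bar is the median of the list. On CCl4 the 10 pericentral genes have medians of -1.57 and -1.59, the 26 other pericentral genes -0.50 and -0.71, and the 23 periportal genes 0.45 and -0.24.

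The Wnt ligands and R-spondins were scarce in bulk liver. *Wnt2*, made by sinusoidal and central vein endothelium, was at 2.82, 3.12 and 3.13 CPM in wild type mice on oil and at 3.20, 1.58 and 3.18 CPM on CCl4, which overlapped (log2 difference -0.17). The *Lcn2* null values were 3.05, 3.23 and 3.47 CPM on oil and 5.54, 5.24 and 5.75 CPM on CCl4, with no overlap. *Wnt2* was called higher there (0.62, adjusted p = 0.0359, limma), beside a median of 0.35 for all genes. *Wnt9b*, the ligand of the central vein endothelium, was called higher on CCl4 in wild type mice (0.64, adjusted p = 0.0498, limma), beside a median of 0.27 for all genes. That call rested on 2 reads per oil library and 8 to 11 per CCl4 library. The calls of *Wnt2* and *Wnt9b* are on the CPM scale, before the median-ratio rescaling. *Rspo3*, the R-spondin of the same cells, was at 3.25 to 7.56 CPM on oil and 4.53 to 8.43 CPM on CCl4 in wild type mice and did not pass the test (0.45 and, in *Lcn2* null mice, 0.37). Of 9 ligands, agonists and secretion genes 3 were higher and 1 lower in wild type mice, beside 18.5% and 3.18% of all genes, with *Wnt5a* (1.17), *Wls* (1.0), the carrier that secretes Wnt proteins, and *Rspo1* (-1.07) beside *Wnt9b*. *Wls* (1.58) and *Wnt2*, 2 of 8, were higher in *Lcn2* null mice, beside 29.6% of all genes. *Rspo1* was also lower in *Lcn2* null than in wild type mice on oil (-1.35).

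Receptors and transducers of the pathway were mostly not called. Of all genes, 18.5% were called higher and 3.18% lower in wild type mice, and 29.6% and 4.51% in *Lcn2* null mice. After the median-ratio rescaling 1168 of 15841 genes were higher and 1110 lower in wild type mice. In *Lcn2* null mice 1951 of 15645 were higher and 1693 lower. The counts below are to be read against these. Median differences of all genes were 0.27 and 0.35 before the rescaling. Of 11 receptor and receptor-turnover genes 3 were higher on CCl4 in wild type mice, *Fzd1* (1.15), *Rnf43* (0.83), a ligase that removes Wnt receptors, and *Fzd5* (0.78), but 1 was higher and 2 lower after the median-ratio rescaling. In *Lcn2* null mice *Lrp5* (0.79) and *Fzd1* (0.73) were higher and *Fzd8* (-1.21) lower, which became 0 higher and 3 lower. *Ctnnb1*, beta-catenin, had a log2 difference of 0.01 in wild type mice. Before the rescaling it was called higher in *Lcn2* null mice (0.75, adjusted p = 0.00165, limma), beside a median of 0.35 for all genes. *Tcf7l2*, the main TCF factor of hepatocytes, was at 0.28 and 0.09 and was not called. Of 18 transducers, 3 were higher in wild type mice, *Ctnnbip1* (1.02), an inhibitor of beta-catenin, *Bcl9l* (0.88) and *Csnk1a1* (0.83), and 5 in *Lcn2* null mice, with *Tcf7* (1.13) the largest, and none was lower. The median-ratio rescaling left 1 higher in wild type mice, and 2 higher and 1 lower in *Lcn2* null mice. Among targets and secreted inhibitors, *Ccnd1* (1.24 and 2.14), which drives entry into the cell cycle, *Myc* (1.20 and 1.19) and *Dkk3* (1.22 and 1.36) rose in wild type and *Lcn2* null mice, *Tnfrsf19* (0.79) rose in wild type mice, and *Sp5* (-1.13) fell in *Lcn2* null mice. *Ccnd1* was also higher in *Lcn2* null than in wild type mice on CCl4 (0.97, adjusted p = 0.0166, limma). On oil *Fzd8* (1.33) and *Rnf43* (0.85) were higher in *Lcn2* null mice, and no transducer or target was called. Of all genes, 1.11% were called higher and 3.8% lower in that comparison.

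Among the partners of the pericentral enzymes, calls were made in both directions. Of 14 ammonia, glutamate and proline genes, 3 were called higher and 1 lower on CCl4 in wild type mice. Of all genes, 18.5% and 3.18% were. After the median-ratio rescaling 1 of the 14 was higher and 4 lower, beside 1168 and 1110 of all 15841 genes. *Aldh18a1* (0.81), which starts proline synthesis, and *Got2* (0.57) were among those called higher before that rescaling, and *Prodh* (-0.57), proline dehydrogenase, was lower. In *Lcn2* null mice 3 of the 14 were higher and 3 lower, beside 29.6% and 4.51% of all genes. *Aldh18a1* (1.81) and the glutamine carrier *Slc1a5* (1.23) were among those higher. *Prodh* (-1.0) and the carriers *Slc38a4* (-0.93) and *Slc38a3* (-0.74) were lower. *Slc38a3*, which moves glutamine across the hepatocyte membrane, was at -0.25 in wild type mice. *Gls2* had log2 differences of 0.45 and -0.24 and was not called. Around *Cyp1a2*, the receptor *Ahr* was at -0.10 and -0.04 and the P450 reductase *Por* at 0.25 and -0.43, none of them called. Of 10 genes of this group *Cyp1b1* (0.81) and *Nqo1* (0.69) were higher in wild type mice, beside 18.5% of all genes. *Nqo1* is a target of the receptor and of the oxidative stress response. It was higher in *Lcn2* null mice too (1.06), as 1 of 9 measured, beside 29.6% of all genes. None was lower in either genotype. *Gulo*, which carries out the last step of ascorbate synthesis after *Rgn*, was at 224 to 248 CPM on oil and 166 to 205 CPM on CCl4 in wild type mice (-0.37, adjusted p = 0.0193, limma). It had an adjusted p under 0.05 in *Lcn2* null mice too (-0.47), with a difference under the 0.56 required. Of the 6 ascorbate genes the carrier *Slc23a2* was called lower, at -0.60 and -0.69, where 3.18% and 4.51% of all genes were.

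Markers of other cells differed between oil and CCl4 beside the pericentral genes. The sum of 8 stellate cell and myofibroblast markers was 350.2 to 470.2 CPM on oil and 953 to 1454 CPM on CCl4 in wild type mice, and 205 to 343 CPM and 586 to 1174 CPM in *Lcn2* null mice. The 5 proliferation markers rose in both genotypes, with median log2 differences of 4.14 and 5.28. Bile duct markers summed to 86.6 to 201 CPM on oil and 317 to 736 CPM on CCl4 in wild type mice, and to 42.9 to 48.9 CPM and 202 to 268 CPM in *Lcn2* null mice. Kupffer cell markers were 4 of 6 lower in wild type mice, where 3.18% of all genes were. In *Lcn2* null mice 3 were higher and 2 lower, beside 29.6% and 4.51% of all genes. The median-ratio rescaling gave 1 higher and 2 lower there, beside 1951 and 1693 of all 15645 genes. Endothelial markers, of the cell type that makes the Wnt ligands, were 2 of 9 higher in wild type and 3 of 9 higher in *Lcn2* null mice. Of all genes, 18.5% and 29.6% were. In wild type mice that rescaling gave 1 higher and 1 lower, beside 1168 and 1110 of all 15841 genes. Neutrophil markers summed to 152 to 209 CPM on oil and 68.7 to 103 CPM on CCl4 in wild type mice, with *S100a8* (-1.36) and *S100a9* (-0.92) lower. They summed to 21.4 to 38.6 CPM and 52.9 to 106 CPM in *Lcn2* null mice, with *S100a8* (1.18) and *S100a9* (1.68) higher. Mesothelial markers summed to 31.1 to 46.0 CPM on oil and 9.94 to 26.1 CPM on CCl4 in wild type mice, with 3 of 4 lower, and to 7.19 to 8.18 CPM and 7.25 to 29.0 CPM in *Lcn2* null mice, with 0 called. The 5 lymphocyte markers did not exceed a sum of 7.25 CPM in any library. On CCl4 1 was higher in wild type and 2 in *Lcn2* null mice, beside 18.5% and 29.6% of all genes. Of the markers measured in these lists, 1 neutrophil gene was at 0 in all 3 *Lcn2* null libraries on oil, and no other was at 0 in all libraries of a group. The part of these cells in the pericentral differences was not tested. With the libraries rescaled by the hepatocyte genes, 7 of the 10 pericentral genes were called lower in wild type mice, where 411 of all 15841 genes were. In *Lcn2* null mice 5 were, where 402 of all 15645 genes were. The medians of the 10 were -1.47 and -1.33, beside 0.35 and 0.58 for all genes.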

How the data were processed

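Whole liver RNA of 4 groups with 3 libraries each was read on a NextSeq 500. The study's methods name a 3′ end kit (MACE) for the libraries and also a stranded total RNA kit. Per the study's methods, reads went through nf-core RNA-Seq pipeline 3.0, were trimmed by TrimGalore 0.6.6 and were aligned to mm10 by STAR 2.6.1d. Salmon is named there as the counter, whereas featureCounts stands in the submitters' processing notes. The authors deposited CPM, scaled to the reads in genes of each library with no size factors, in tables filtered per comparison, and 0 columns were left unmapped. Their fold changes and p-values (DESeq2 1.30.0) and 8 enrichment tables were not used. The design assumed no unit as certain, and the test for normalized values was taken. Each table was fitted on log2(CPM + 1) with limma 3.58.1 in R 4.3.3, with a variance trend and Benjamini-Hochberg adjustment over all its genes, and the difference of responses over 12 libraries. Ratios were tested by exact permutation. The code was tested on simulated data. In 11 libraries each CPM gave whole reads within 0.001, and edgeR 4.0.16 (quasi-likelihood) and DESeq2 1.42.0 were run on these as alternatives, beside other scalings, pseudocounts, filters, a replicate block and libraries left out. Named were the 10 genes, a fixed set of Wnt, ammonia and ascorbate genes, and per list up to 4 called genes per direction with the largest change, apart from 1 gene that is not reported here. The members, lists and tests were chosen with earlier results of these data known. Figures and tables used Python 3.11.15, pandas 2.3.3 and matplotlib 3.10.9.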

Additional observations from a re-analysis of the deposited data

Results flagged for a closer look

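The CCl4 response of *Cyp2e1* differed between the genotypes by a direct test of the difference over all 12 libraries. The fall from oil to CCl4 was -2.79 in wild type and -3.76 in *Lcn2* null mice on the log2 scale, a difference of -0.97 (adjusted p = 0.0473, limma). The means were 2487 ± 316 and 357 ± 28.3 CPM in wild type mice and 3546 ± 525 and 267 ± 82.6 CPM in *Lcn2* null mice (SD, n = 3 each). The call was lost when any of 10 of the 12 libraries was left out, as it was after rescaling by the hepatocyte genes (-0.78, adjusted p = 0.104). It was also lost with a pseudocount of 5 (-0.96, adjusted p = 0.0566) and without the variance trend (adjusted p = 0.173, all limma). No other gene of the 10 passed this test. Of 23 periportal genes, 9 were called lower in the same test, where 0.816% of all genes were. The log2 ratio of *Cyp2e1* to *Cyp2f2* differed between CCl4 and oil by -2.90 in wild type and -2.64 in *Lcn2* null mice.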

How the results depend on the processing

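The falls of *Glul*, *Slc1a2*, *Rhbg*, *Oat* and *Cyp2e1* on CCl4 were called in both genotypes under each alternative run that kept the gene, with log2 differences from -6.52 (*Slc1a2*) to -1.25 (*Rhbg* with a pseudocount of 5). The calls of *Tbx3*, *Cyp1a2*, *Oat* on oil and the *Cyp2e1* difference of responses were lost under some settings, and that of *Rgn* in *Lcn2* null mice under the hepatocyte rescaling. The values stand with each gene, and the cause was not tested. Of 505 single-gene values under alternatives other than leaving out a library, 481 kept direction and call. With a library left out 317 of 360 did, while 23 lost a call, 2 gained one and 18 changed sign. The count tests, TMM and size factors were not run for the 3 comparisons that use library 2 of *Lcn2* null mice on CCl4. Depth limits *Slc1a2* and *Rhbg* on CCl4 and *Axin2*, *Lgr5* and the Wnt ligands throughout, and intervals cover the spread between libraries only.

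Counts of genes called over the whole table moved most. A mean of at least 10 CPM left fewer genes to test, 7537 of 15841 and 7540 of 15645 for CCl4 in wild type and *Lcn2* null mice, and 6917 of 14202 and 7999 of 14445 between the genotypes on oil and on CCl4. For CCl4 in wild type mice, the 3435 calls became 2081 with a pseudocount of 5, 1938 with a mean of at least 10 CPM, 2278 with the median-ratio rescaling (chosen after seeing the data) and with size factors, 2279 with TMM and 2226 with edgeR. The 5336 calls in *Lcn2* null mice became 3388 with a pseudocount of 5, 2840 with a mean of at least 10 CPM and 8020 after rescaling by the hepatocyte genes, which called 5 in place of 8 of the pericentral genes. The 697 calls between the genotypes on oil became 363 with a mean of at least 10 CPM, 1049 after rescaling by the hepatocyte genes and 373 without the variance trend, and the last 2 settings each called 1 of the pericentral genes in place of 2. The 43 calls on CCl4 became 21 with a mean of at least 10 CPM and 11 without the trend (7 higher and 4 lower, against 15 and 28). For the difference of responses, 289 calls (165 higher and 124 lower) became 434 (376 and 58) after rescaling by the hepatocyte genes and 70 without the trend, and 138 higher and 200 lower with the median-ratio rescaling. A pseudocount of 5, the hepatocyte rescaling and the fit without the trend each left 0 of the pericentral genes called in that comparison. Small differences changed sign under a rescaling, with *Axin2* on CCl4 in *Lcn2* null mice at 0.061 by the hepatocyte genes, and by the median ratio *Lgr5* in the same comparison at -0.19, *Glul* (-0.0014) and *Axin2* (-0.019) between the genotypes on CCl4, and *Rgn* in the difference of responses at -0.055.

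With single libraries left out, the pericentral calls ranged from 6 to 7 in wild type and from 6 to 7 in *Lcn2* null mice on CCl4, from 1 to 3 between the genotypes on oil and from 0 to 1 for the difference of responses, and were 0 on CCl4. The counts over all genes ranged from 2432 to 3212, from 4573 to 5273, from 337 to 632 on oil, from 16 to 97 on CCl4 and from 136 to 447 for the difference of responses. The extremes on oil came without *Lcn2* null library 2 (337) and wild type library 3 (632), and those on CCl4 without wild type library 2 (16) and wild type library 1 (97). Signs turned for *Lgr5* on CCl4 in wild type mice (-0.32 to 0.075), *Axin2* on CCl4 in *Lcn2* null mice (-0.32 to 0.037) and *Tbx3* between the genotypes on oil (-0.38 to 0.23). Between the genotypes on CCl4 they turned for *Glul* (-0.049 to 0.20), *Oat* (-0.023 to 0.47), *Rhbg* (-0.019 to 0.58), *Axin2* (-0.11 to 0.25) and *Tbx3* (-0.024 to 0.33). In the difference of responses they turned for *Rhbg* (-0.54 to 0.058), *Tbx3* (-0.086 to 0.52) and *Rgn* (-0.011 to 0.10). The ratio of *Glul* to *Gls2* between the genotypes ranged from 0.20 to 0.39 and passed the exact permutation test without wild type oil library 3 (adjusted p = 0.0467), and that of *Cyp2e1* to *Cyp2f2* ranged from 0.0035 to 0.34. The injection differences of the ratios ranged from -3.76 to -3.59 and from -2.92 to -2.59.

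Same-numbered libraries correlated at -0.12 to 0.19 in their deviations from the group means, so the numbers were not taken as pairs. With the replicate number as a block, the calls between the genotypes on CCl4 went from 43 to 76 and the pericentral counts did not change. The ratio differences of -3.69 and -2.77 kept their size with the block, where the exact permutation test gave an adjusted p of 0.0625 from the smallest p of 0.03125 that the blocks allow.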

Other observations

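The genes whose profile over the 12 libraries was nearest to that of *Glul* were found among 7544 genes with a mean of at least 10 CPM, by the root mean square of the differences in centred log2(CPM + 1). The measure weighs the CCl4 difference most, since it is the largest step in these profiles, and it is a description with no test. Nearest to *Glul* were *Cyp2e1* (0.35) and *Oat* (0.38), both of the 10, followed by *Csrp3* (0.42), which encodes a LIM protein known from striated muscle, *Lhpp* (0.50) and an unnamed gene, ENSMUSG00000088595 (0.56). *Csrp3* was at 48.9 to 61.8 CPM on oil and 3.86 to 5.85 CPM on CCl4 in wild type mice, and at 40.3 to 47.1 CPM and 3.30 to 5.88 CPM in *Lcn2* null mice. The separation of oil and CCl4 in *Csrp3* follows from its choice as a gene near *Glul* and is no further result. Its genotypes lay apart on oil, in the direction opposite to *Glul*. Nearest to *Cyp2e1* were *Oat* (0.29), *Glul* (0.35), *Lhpp* (0.42), *Cyp8b1* (0.48), the sterol 12-hydroxylase of bile acid synthesis, and *Csrp3* (0.50). *Cyp8b1* was at 242 to 332 CPM on oil and 29.7 to 75.8 CPM on CCl4 in wild type mice, and at 326 to 426 CPM and 15.0 to 23.4 CPM in *Lcn2* null mice. Here too the separation of oil and CCl4 follows from the choice of the gene. The other 4 of the 10 that passed the filter on the mean ranked 35 (*Slc1a2*), 156 (*Tbx3*), 218 (*Rgn*) and 500 (*Cyp1a2*) for *Glul*.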
